A study of Drosophila melanogaster with 32 samples.

Results

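Females of the Pof mutant, which lack the protein POF, were set directly against females of the PoX2 deletion, which keep POF but lack one of its landing sites on the X chromosome. The 2 groups were taken by their labelled genotype and sex, and they hold 8 of the 32 libraries of the series, 4 from PofD119 females and 4 from PoX2Df1.688 females. PofD119 is a deletion that removes the coding region of Pof, and PoX2Df1.688 is a CRISPR deletion of a short satellite array downstream of CG1840, at the site called PoX2. The paper reports from earlier work that POF targeting was also lost at a separate locus, PoX1, in the PoX2 deletion. Each library came from 10 whole virgin adult females, 3 of them collected 6 to 8 h, 4 of them 14 to 16 h and 3 of them 22 to 24 h after hatching, and total RNA was depleted of rRNA before sequencing. No wild-type library enters the comparison, so a gene that differs may have departed from wild type in either genotype, and these cannot be told apart here. The 2 lines are separate stocks that were not made isogenic, so the strain background differs along with the named alleles and cannot be told apart from them either.

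POF is an RNA-binding protein that coats the small, heterochromatin-rich chromosome 4 of Drosophila and raises the output of its genes, together with the repressive heterochromatin protein HP1a. In females POF also binds a few sites on the X, the PoX sites, at which short satellite arrays attract it. This satellite, the one in the name PoX2Df1.688, is a family of tandem repeats with a large pericentromeric array on the X, arrays on chromosomes 2 and 3, and short arrays scattered through X euchromatin. In males the X is raised instead by the MSL complex, whose subunit MSL2 is not made in females. The repeat unit that gives the family its identity is shown here because the satellite measurements below rest on it. It is one of 9 query sequences, of 258 to 361 bases, with which the study located the satellite blocks, it was named by the study as coming from X heterochromatin, it is 359 bases long and 69.1% of its bases are A or T. Its first 300 bases are printed 5′ to 3′, all in lower case because no position within the repeat was measured.
Repeat from X heterochromatin, bases 1 to 300: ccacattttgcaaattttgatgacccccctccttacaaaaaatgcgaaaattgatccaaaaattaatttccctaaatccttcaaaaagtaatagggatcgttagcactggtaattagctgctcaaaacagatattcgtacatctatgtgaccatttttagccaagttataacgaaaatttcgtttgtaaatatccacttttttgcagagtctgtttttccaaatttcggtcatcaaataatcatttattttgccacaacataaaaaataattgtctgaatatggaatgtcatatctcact

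Tables of counts were used for genes, for 652 blocks of the satellite and for named families of repeats. The PofD119 libraries held 22820484 to 27899234 counted gene read pairs and the PoX2Df1.688 libraries 13059000 to 19640742, so every PofD119 library was the deeper one. Levels are given as CPM, which stands for read pairs counted per 1000000 of the library's TMM-scaled total, and every fold change is PofD119 over PoX2Df1.688 on the log2 scale, so that a positive value means higher in PofD119 females. The first principal component held 54.1% of the variance of log2 CPM and separated the genotypes. PofD119 replicate 3 stood apart in its ovary markers: the summed level of 15 vitelline membrane and early eggshell genes was 143, 29.7, 1128 and 67.7 CPM in PofD119 females, against 3086, 3026, 3663 and 1632 CPM in PoX2Df1.688 females. That library was the nearest of its group to the PoX2Df1.688 libraries, and without it the number of genes called was 2965 instead of 1588. Whole flies were sequenced, so fewer cells of a type and less RNA per cell cannot be told apart.

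The loci that define the genotypes behaved differently from each other. The block at PoX2 lies at X:11889258-11891752, starts 72 bases beyond the end of CG1840 and overlaps an annotated exon of sicily. It held 40, 25, 4 and 11 reads in PofD119 females, against 0, 0, 0 and 0 reads in PoX2Df1.688 females. All 4 PofD119 libraries had reads in the deleted array and no PoX2Df1.688 library had any, which puts the pooled level in PofD119 females at least 17.3-fold higher than the floor of 3 reads over the 4 PoX2Df1.688 libraries (exact permutation p = 0.0286, the smallest that 4 against 4 libraries can give). The block was too sparse to enter the fit across all blocks. Both neighbouring genes had a higher mean in PofD119 females and neither was called. CG1840 had 3.88, 4.26, 4.49 and 4.93 CPM in PofD119 females, against 3.43, 3.71, 3.84 and 3.25 CPM in PoX2Df1.688 females (log2 fold change 0.30 ± 0.17 SE, adjusted p = 0.249). For sicily, whose product is a factor in the assembly of mitochondrial complex I, the values were 14.1, 16.7, 15.9 and 15.4 CPM in PofD119 females, against 12.2, 15.1, 14.8 and 10.8 CPM in PoX2Df1.688 females (log2 fold change 0.23 ± 0.14 SE, adjusted p = 0.279). Within 500 kb of the PoX2 block, 2 genes were called higher and 6 lower of 86 tested, which is 9.30% against 13.8% of all genes tested.

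Pof itself (2R:24669397-24671577) had 7.23, 9.71, 6.66 and 9.91 CPM in PofD119 females, against 11.6, 11.6, 15.2 and 11.5 CPM in PoX2Df1.688 females (log2 fold change -0.58 ± 0.17 SE, adjusted p = 0.0497). The groups did not overlap, but read pairs were still counted over the Pof gene in every PofD119 library. The gene overlaps Mmp1 on the opposite strand, counting did not use strand, and the table gives 1 number over all exons, so the part of Pof that the remaining reads come from was not tested. The call stood at the edge of the threshold and held in 4 of 15 alternative fits, with adjusted p between 0.00826 and 0.138. Within 500 kb of Pof, 5 genes were called higher and 7 lower of 111 tested (10.8%, against 13.8% of all genes tested).

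Genes commonly used as visible markers separated the 2 stocks. The white gene w, which encodes a transporter of eye pigment precursors, had 0.914, 1.67, 1.27 and 1.08 CPM in PofD119 females, against 26.9, 30.1, 24.6 and 31.5 CPM in PoX2Df1.688 females (log2 fold change -4.52 ± 0.19 SE, adjusted p = 2.56e-07). Vermilion, v, the tryptophan oxygenase that makes the brown eye pigment precursor, ran the other way with 6.74, 11.2, 10.3 and 13.9 CPM in PofD119 females, against 0.448, 0.193, 0.135 and 0.136 CPM in PoX2Df1.688 females (log2 fold change 5.53 ± 0.37 SE, adjusted p = 7.45e-06). For yellow, y, which is needed for dark cuticle pigment, the levels were 6.78, 6.73, 8.64 and 6.544 CPM in PofD119 females, against 1.42, 0.579, 0.875 and 0.813 CPM in PoX2Df1.688 females (log2 fold change 2.99 ± 0.26 SE, adjusted p = 4.04e-05). No PofD119 library overlapped a PoX2Df1.688 library in any of these 3 genes, and the alleles the stocks carry at them were not analysed here. Within 500 kb of w, 14 of 68 tested genes were called (20.6%), within 500 kb of y 11 of 76 (14.5%), and within 500 kb of v 8 of 86 (9.30%). Of all genes tested 13.8% were called.

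**Figure D1:**
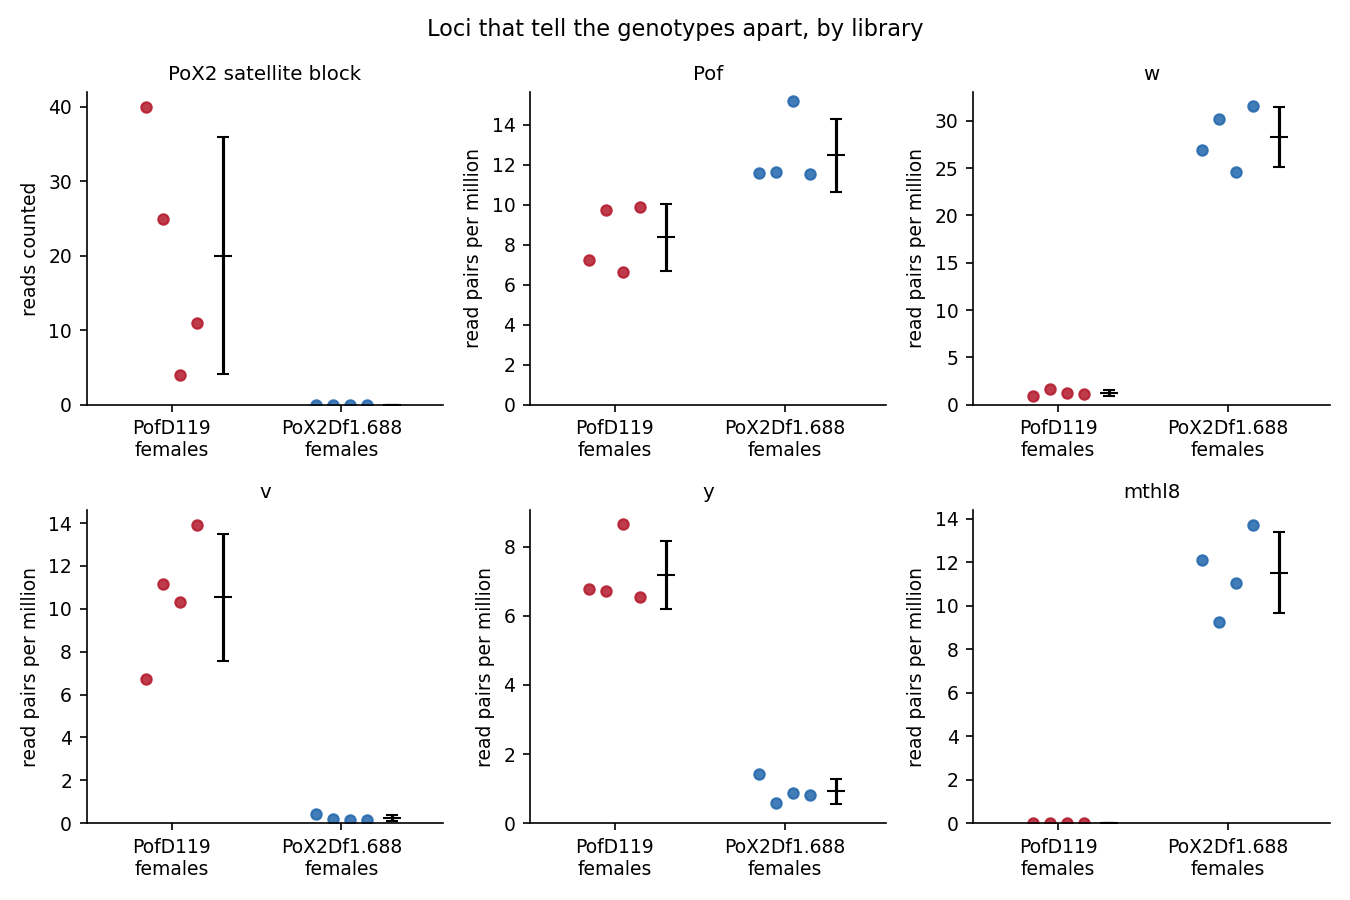
Reads in the PoX2 satellite block and CPM of Pof, w, v, y and mthl8 in each library, with PofD119 females left and PoX2Df1.688 females right. Points are libraries and the black bars are mean ± SD (n = 4 each). The PoX2 block was at 0 in every PoX2Df1.688 library and mthl8 in every PofD119 library, while Pof kept 6.66 to 9.91 CPM in PofD119 females.

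Among all genes tested, 915 were called higher and 673 lower in PofD119 females of 11469, or 13.8% of all genes (7.98% higher and 5.87% lower, adjusted p below 0.05, edgeR quasi-likelihood test). In 2364 of the tested genes (20.6%) all 4 libraries of one genotype lay above all 4 of the other, and 606 of the called genes differed by at least 2-fold. Protein-coding genes were called in 14.3% of cases (873 higher and 638 lower of 10578) and ncRNA genes in 7.41% (29 higher and 15 lower of 594). Of 121 snoRNA genes tested, none was called higher and 11 were called lower. The number of calls depended on single libraries: leaving out each of the 8 in turn gave 824 to 2965 genes, with the lowest count without PoX2Df1.688 replicate 1 and the highest without PofD119 replicate 3.

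Several of the largest differences were between present and absent. Genes with 3 read pairs or fewer in each PofD119 library and at least 1 CPM in PoX2Df1.688 females numbered 11, and 7 genes showed the reverse. The methuselah-like receptor gene mthl8 (3L:22428-26308) had 0, 0, 0 and 0 CPM in PofD119 females, against 12.1, 9.26, 11.04 and 13.7 CPM in PoX2Df1.688 females, so its pooled level was at least 369-fold lower in PofD119 females against a floor of 3 read pairs over the group (adjusted p = 4.82e-06). CG3397 had 0, 0, 0 and 0 CPM in PofD119 females, against 6.57, 9.11, 14.1 and 10.8 CPM in PoX2Df1.688 females, at least 332-fold lower (adjusted p = 2.11e-05). A pair of X genes had 1 read pair each in the whole PofD119 group. CG3588, which like w lies within the span of kirre, had 0.0381, 0, 0 and 0 CPM in PofD119 females, against 17.8, 19.3, 11.8 and 15.1 CPM in PoX2Df1.688 females, and sordd2, a gene of unclear role, had 0, 0, 0.0374 and 0 CPM in PofD119 females, against 14.8, 12.9, 12.4 and 12.5 CPM in PoX2Df1.688 females. The pooled level in PoX2Df1.688 females was higher by a ratio of 1597 (95% counting interval 286 to 63132) for CG3588 and 1283 (95% counting interval 229.6 to 50736) for sordd2. CG42876, CG8543, CR40190, CG14419 and CR44383 also had no read pair in any PofD119 library and were at least 41.5-fold lower, with CG14419 again lying within kirre and the pseudogene CR44383 next to sordd2. Whether these sequences are present in the DNA of each stock was not measured. The remaining 2 of the 11, CG44405 and Or42a, were too low in counts for the test.

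Genes absent from the PoX2Df1.688 libraries were fewer and lower. CR41509, a pseudogene of the Y, had 1.599, 1.45, 2.39 and 1.52 CPM in PofD119 females, against 0, 0, 0 and 0 CPM in PoX2Df1.688 females, which is at least 37.5-fold higher (adjusted p = 4.68e-04). As females carry no Y, the position in these stocks of the sequence behind those reads is not known from the table. Sdic2, a member of the X-linked sperm dynein intermediate chain cluster whose copies are nearly identical, had 1.29, 1.05, 1.23 and 1.84 CPM in PofD119 females, against 0, 0, 0 and 0 CPM in PoX2Df1.688 females, at least 28.6-fold higher. This value is uncertain, because only uniquely mapped read pairs were counted and pairs that fit several copies were left out. CG17580 had 1.45, 0.615, 2.47 and 1.25 CPM in PofD119 females, against 0, 0, 0 and 0 CPM in PoX2Df1.688 females, at least 31.6-fold higher. The others were lncRNA:CR45138, CG7017, CG4367 and Hsp70Ba, and of these the heat shock gene Hsp70Ba reached 1.25 to 1.67 CPM in 3 PofD119 libraries and 0.0374 CPM in replicate 3.

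Among genes with read pairs in both genotypes, X-linked CG32751 had 12.98, 23.5, 22.4 and 10.1 CPM in PofD119 females, against 0.448, 0.482, 0.404 and 0.136 CPM in PoX2Df1.688 females (log2 fold change 5.503 ± 0.40 SE, adjusted p = 1.35e-05). The thioester protein gene Tep1, a complement-like factor of insect immunity, had 6.93, 7.96, 16.6 and 50.7 CPM in PofD119 females, against 0.298, 0.482, 0.673 and 0.407 CPM in PoX2Df1.688 females (log2 fold change 5.43 ± 0.88 SE, adjusted p = 0.00821), with the highest value in PofD119 replicate 4. In the other direction CG42749 had 0.761, 1.32, 0.8600 and 0.179 CPM in PofD119 females, against 36.6, 47.3, 31.8 and 48.6 CPM in PoX2Df1.688 females (log2 fold change -5.703 ± 0.37 SE, adjusted p = 1.14e-05), and HP1D3csd, an X-linked gene related to the HP1 family member Rhino, had 0.457, 0.527, 0.1496 and 0.135 CPM in PofD119 females, against 11.9, 15.4, 12.5 and 15.8 CPM in PoX2Df1.688 females (log2 fold change -5.43 ± 0.34 SE, adjusted p = 3.86e-06). The alkaline phosphatase gene Alp7 fell as well, with 0, 0.0879, 0.0748 and 0.179 CPM in PofD119 females, against 2.69, 3.57, 5.52 and 4.68 CPM in PoX2Df1.688 females (log2 fold change -5.54 ± 0.50 SE, adjusted p = 5.17e-05). CG42749 overlaps CG17764 and CG3323 on the opposite strand, and its reads cannot be told apart from theirs.

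Chromosome 4, the chromosome that POF coats, had mostly lower calls. Of 86 genes tested there, 19 were called lower and 1 higher in PofD119 females, against 5.87% called lower and 7.98% called higher among all genes, and 70 of the 86 fitted fold changes were negative. The median log2 fold change was -0.19 on chromosome 4 against 0.02 over all genes. On each of the 4 large autosome arms the higher calls outnumbered the lower ones, with 200 higher and 117 lower of 2037 on 2L. On the X 134 were higher and 120 lower of 1890, and this order turned with DESeq2 (186 higher and 202 lower), with the replicate block (144 and 191), with all 16 female libraries (204 and 277) and without PofD119 replicate 3 (312 lower). For the arms this order was counted only in the fit of all 8 libraries; over all genes it turned with the replicate block, with all 16 female libraries and without PofD119 replicate 3. The 18 called genes between 0 and 1 Mb made that stretch of chromosome 4 the 1 Mb window with the largest share of calls (26.9% of 67), among windows with at least 20 genes tested. Without PofD119 replicate 3 the counts on chromosome 4 were 22 lower and 2 higher, and over all 8 omissions 13 to 22 genes were lower.

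The largest chromosome 4 difference was in mav (4:623219-626031), which encodes the TGF-beta family ligand Maverick. It had 11.7, 11.4, 14.4 and 15.1 CPM in PofD119 females, against 41.8, 41.7, 40.3 and 42.5 CPM in PoX2Df1.688 females (log2 fold change -1.66 ± 0.12 SE, adjusted p = 1.14e-05), and the spread within each genotype was small beside the difference. CG31999 (4:215009-227748) had 16.5, 17.6, 18.3 and 18.8 CPM in PofD119 females, against 52.7, 45.1, 44.3 and 46.8 CPM in PoX2Df1.688 females (log2 fold change -1.41 ± 0.10 SE, adjusted p = 1.14e-05). The synaptic vesicle priming factor unc-13 (4:867824-912331) was at 244, 239, 164 and 192 CPM in PofD119 females, against 451, 423, 376 and 443 CPM in PoX2Df1.688 females (log2 fold change -1.01 ± 0.13 SE, adjusted p = 5.83e-04). Its antisense partner asRNA:CR44029 moved with it, with 19.1, 16.9, 13.6 and 14.5 CPM in PofD119 females, against 38.1, 34.6, 34.996 and 39.2 CPM in PoX2Df1.688 females (log2 fold change -1.19 ± 0.13 SE, adjusted p = 1.88e-04), but the pair overlaps on opposite strands and counting did not use strand, so the 2 genes are not separate evidence. A member of the yellow family, yellow-h, had 3.77, 4.88, 3.89 and 2.73 CPM in PofD119 females, against 10.4, 7.28, 6.66 and 8.74 CPM in PoX2Df1.688 females (log2 fold change -1.11 ± 0.21 SE, adjusted p = 0.00752), and CG31997 had 13.2, 18.5, 12.6 and 14.7 CPM in PofD119 females, against 26.4, 34.2, 25.2 and 26.4 CPM in PoX2Df1.688 females (log2 fold change -0.93 ± 0.15 SE, adjusted p = 0.00284). All 6 of these were called in each of the 15 alternative fits.

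The other lower genes of chromosome 4 differed less, with log2 fold changes between -0.76 and -0.24. They were CG33941, RhoGAP102A, Arl4 (a small GTPase), CG11076, CG33978, Slip1, CG31998, Gyf, RpS3A (a protein of the small ribosomal subunit), PlexB (a semaphorin receptor), anne, lgs (a co-activator of Wnt signalling) and gw (a core factor of microRNA silencing). Gyf averaged 268.98 ± 16.3 CPM in PofD119 females and 351 ± 19.95 CPM in PoX2Df1.688 females (SD, n = 4 each), and gw averaged 385 ± 15.1 CPM in PofD119 females and 456 ± 20.4 CPM in PoX2Df1.688 females. Fold changes were positive in 16 of the 86 genes. The 1 gene called higher was apolpp, the haemolymph lipid carrier apolipophorin, with 3042, 4629, 4677 and 4182 CPM in PofD119 females, against 1849, 2474, 2763 and 2073 CPM in PoX2Df1.688 females (log2 fold change 0.85 ± 0.16 SE, adjusted p = 0.00682). Together with bt and ATPsynbeta it was among the 3 most highly counted genes of the chromosome. ATPsynbeta was not called, but every PofD119 library lay above every PoX2Df1.688 library (log2 fold change 0.43 ± 0.14 SE, adjusted p = 0.0653). Of the 14 tested chromosome 4 genes with an exon length under 1500 bases, 5 were lower and none higher (median -0.34), and of the 72 longer ones 14 were lower and 1 higher (median -0.19); the difference between the length classes was not tested.

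**Figure D2:**
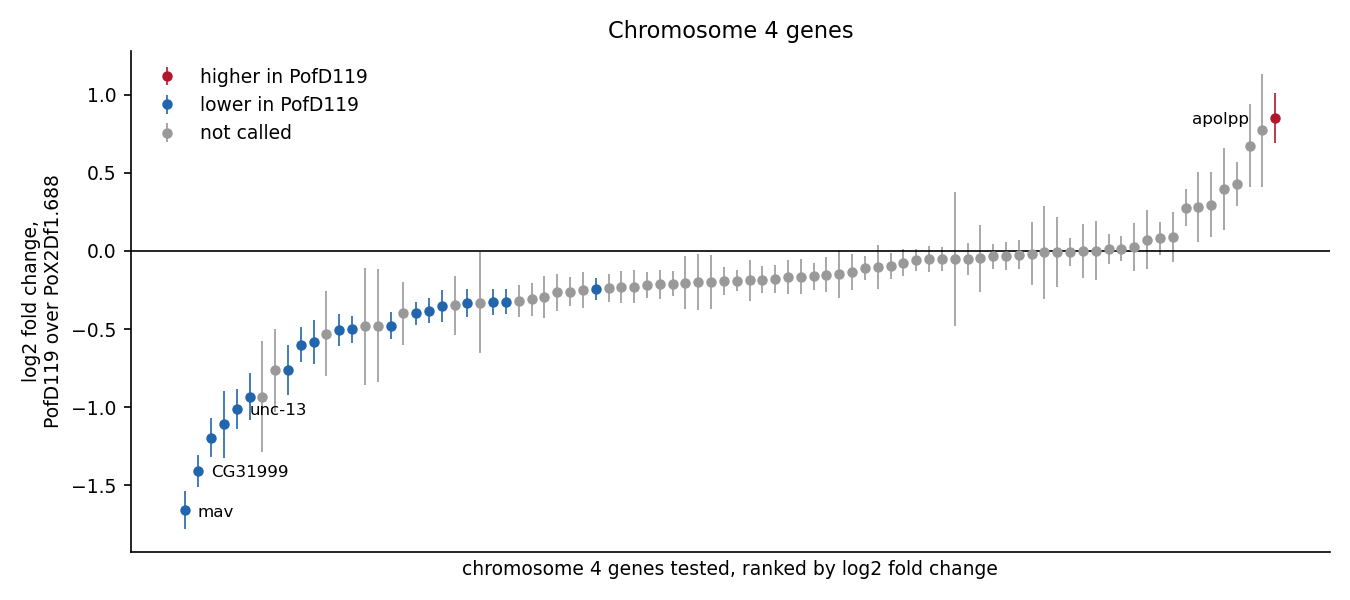
Log2 fold change of the 86 chromosome 4 genes tested, PofD119 over PoX2Df1.688 females, ranked from lowest to highest with 1 standard error (n = 4 each). Blue points are the 19 genes called lower in PofD119, the red point is apolpp, the 1 gene called higher, and 70 of the 86 values lie below 0.

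The same comparison was made with 1 value per library, the mean log2 CPM of chromosome 4 genes minus that of genes on the 4 large autosome arms. It was 1.54, 1.57, 1.31 and 1.36 in PofD119 females, against 1.77, 1.74, 1.61 and 1.79 in PoX2Df1.688 females (difference -0.28, exact permutation p = 0.0286, adjusted p = 0.0952 over the 10 values tested). The groups did not overlap, and the difference corresponds to chromosome 4 levels 17.9% lower in PofD119 females. The exact permutation of 4 against 4 libraries cannot go below p = 0.0286. A value at that floor can pass 0.05 after Benjamini-Hochberg adjustment over 10 only if most of the 10 reach it. Without genes at least 2-fold higher in Oregon-R females than in Oregon-R males, 2 further groups of the series, the difference was -0.29. All 86 chromosome 4 genes stayed in, while autosomal genes fell from 9474 to 8522, so only the autosomal mean changed. Weighting genes by their level removed the difference: log2 of summed CPM gave a difference of -0.0018 (exact permutation p = 0.971) with apolpp in the sum and -0.11 (exact permutation p = 0.0857) without apolpp, an alternative added after the values were seen.

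On the X the difference was smaller and depended on how genes were summarised. X genes stood at 0.28, 0.21, 0.29 and 0.22 in PofD119 females, against 0.33, 0.32, 0.33 and 0.29 in PoX2Df1.688 females in mean log2 CPM relative to the autosomes (difference -0.07, exact permutation p = 0.0286, adjusted p = 0.0952 over the 10 values tested), 4.92% lower in PofD119 females, with no overlap. The difference was -0.02 for the median over genes (exact permutation p = 0.343) and -0.04 for summed CPM (exact permutation p = 0.143). Without the genes at least 2-fold higher in Oregon-R females than in males it was -0.043 (exact permutation p = 0.0286). In the same mean log2 CPM, single large autosome arms differed from the others by -0.02 to 0.01 (exact permutation p of 0.0857 or more). Other summaries brought each arm to an exact permutation p of 0.0286, the smallest that 4 against 4 libraries can give: 2R as a median over genes (0.0653) and in genes of at least 5 CPM (0.0363), 3L as summed CPM (-0.0486), 3R as summed CPM (0.0215) and in genes of at least 5 CPM (-0.0312), and 2L without the female-biased genes (0.0179).

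X genes were also divided by the published strength of MSL binding in males, from bin 1 with the weakest to bin 4 with the strongest binding, although females do not assemble the complex. Bin 1, with 309 tested genes, was at -0.90, -1.03, -0.98 and -1.02 in PofD119 females, against -0.89, -0.80, -0.89 and -0.89 in PoX2Df1.688 females (difference -0.11, exact permutation p = 0.0286, adjusted p = 0.0952 over the 10 values tested). In bin 4, with 189 tested genes, the values were 1.41, 1.28, 1.55 and 1.36 in PofD119 females, against 1.62, 1.58, 1.66 and 1.54 in PoX2Df1.688 females (difference -0.20, exact permutation p = 0.0571, adjusted p = 0.143 over the 10 values tested), with PofD119 replicate 3 just above the lowest PoX2Df1.688 library. Bins 2 and 3 differed by 0.03 and -0.08 with exact permutation p of 0.486 and 0.114, and differences between bins were not tested. These values depended on the summary. Bin 1 differed by -0.0383 as summed CPM (exact permutation p = 0.314), by -0.224 in genes of at least 5 CPM (exact permutation p = 0.0286) and by -0.0815 without the female-biased genes (exact permutation p = 0.0571). Bin 4 differed by -0.198 as summed CPM and by -0.186 in genes of at least 5 CPM, and bin 3 by -0.0963 as summed CPM, each with an exact permutation p of 0.0286.

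**Figure D3:**
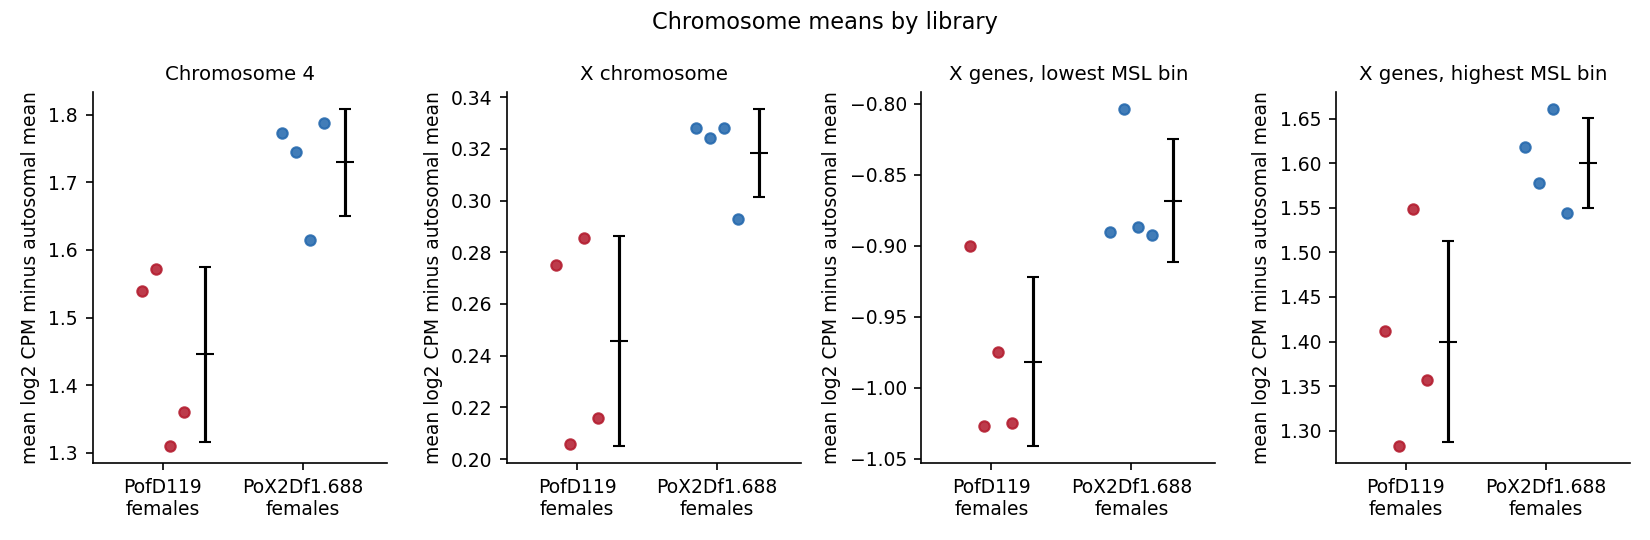
Mean log2 CPM of chromosome 4 genes, of X genes and of X genes in the lowest and highest MSL-binding bins, each minus the mean of genes on the large autosome arms, by library. Points are libraries, bars are mean ± SD (n = 4 each), and axes do not start at 0. PofD119 females lie left and below PoX2Df1.688 females without overlap for chromosome 4, X and bin 1, and with 1 overlapping library in bin 4.

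Of 8 tested genes of the MSL complex and its partners, 2 were called lower and none higher. Over all genes 5.87% were called lower and 7.98% higher. The 2 were msl-1, the scaffold of the complex, and mof, its histone acetyltransferase. The mof gene had 14.9, 14.6, 17.6 and 18.3 CPM in PofD119 females, against 22.6, 20.98, 23.9 and 20.1 CPM in PoX2Df1.688 females (log2 fold change -0.42 ± 0.12 SE, adjusted p = 0.0411), and msl-1 had 69.2, 52.3, 92.5 and 57.9 CPM in PofD119 females, against 96.2, 96.8, 106 and 98.5 CPM in PoX2Df1.688 females (log2 fold change -0.55 ± 0.15 SE, adjusted p = 0.0398), with PofD119 replicate 3 closest to the other genotype. Of the 8 fits that left out 1 library, msl-1 was called in 1 and mof in 2. The male-limiting subunit msl-2, the chromodomain subunit msl-3, the helicase mle, the adaptor Clamp, the sex-determination switch Sxl and the RNA roX1 were not called, with log2 fold changes between -0.21 and 0.20. The roX2 RNA was too low to test, with at most 0.314 CPM in any library.

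Satellite RNA separated the genotypes by where its blocks lie. CPM of satellite blocks are reads per 1000000 counted gene read pairs, so that satellite and gene levels share 1 scaling. Over all 652 satellite blocks the summed levels were 458, 406, 459.9 and 416 CPM in PofD119 females, against 783, 659, 677 and 858 CPM in PoX2Df1.688 females (ratio of means 0.585, exact permutation p = 0.0286). Of the 272 blocks with enough reads, 17 were called higher and 154 lower in PofD119 females, 62.9% of those tested (6.25% higher and 56.6% lower). In these counts a read that maps to several blocks is counted in full at each, so blocks that share sequence are not independent and their number is not a number of separate changes. The direction of most blocks also depends on the scaling: scaled on the block table itself rather than on genes, 41 were higher and 34 lower.

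Blocks on the X went against the rest. The X blocks together had 62.5, 67.4, 59.2 and 61.8 CPM in PofD119 females, against 50.6, 39.5, 37.01 and 39.2 CPM in PoX2Df1.688 females (ratio of means 1.51, exact permutation p = 0.0286), and 14 were called higher and 3 lower of the 30 X blocks tested, or 18 higher and 3 lower on the scaling of the block table itself. The 3 adjacent blocks at X:10395351-10396360, in an intron of flw, which encodes a catalytic subunit of protein phosphatase 1, together held 12.6, 17.2, 12.04 and 12.5 CPM in PofD119 females, against 4.55, 3.18, 3.57 and 2.51 CPM in PoX2Df1.688 females. Each of the 3 was called, with log2 fold changes of 1.95 to 2.04 and adjusted p of at most 4.47e-10, and the transcript of flw itself was not (log2 fold change 0.20 ± 0.08 SE, adjusted p = 0.121). In introns of Pde9, a cyclic nucleotide phosphodiesterase gene, lie 10 blocks, which together held 10.6, 11.4, 11.1 and 13.5 CPM in PofD119 females, against 5.299, 5.79, 4.17 and 3.86 CPM in PoX2Df1.688 females. Of the 8 tested there 7 were called higher, with log2 fold changes of 1.21 to 1.71. A read that maps to several of these blocks is counted at each, so the 7 calls are not separate. The sum can hold such a read more than once. In PofD119 females the block at X:12795097-12795418 held 27, 27, 40 and 33 reads, and the one at X:12796176-12796497 held 26, 26, 40 and 32. The Pde9 gene was called higher too, by less (log2 fold change 0.34 ± 0.09 SE, adjusted p = 0.0258).

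Further X blocks that were higher lay in an intron of the potassium channel subunit gene Hk (log2 fold change 1.996 ± 0.47 SE, adjusted p = 1.62e-04), in an intron of the mannosidase gene alpha-Man-Ia (log2 fold change 1.48 ± 0.39 SE, adjusted p = 6.28e-04), between Hecw and Ptpmeg2 (log2 fold change 1.01 ± 0.28 SE, adjusted p = 0.00177) and at the long block of X:201288-243245 near the tip of the chromosome, which had 9.21, 5.85, 6.32 and 9.28 CPM in PofD119 females, against 4.93, 3.23, 3.16 and 2.71 CPM in PoX2Df1.688 females (log2 fold change 1.13 ± 0.21 SE, adjusted p = 2.75e-06). The 3 X blocks that were lower lie close together, between X:8699130 and X:8753009. The one nearest to the homeobox gene Lim1, X:8750430-8753009, had 0.419, 0.0879, 0.411 and 0.448 CPM in PofD119 females, against 2.61, 2.89, 2.15 and 2.44 CPM in PoX2Df1.688 females (log2 fold change -2.85 ± 0.37 SE, adjusted p = 9.25e-11). Those at X:8699130-8702555 and X:8735073-8736045 had log2 fold changes of -2.28 and -2.08. Lim1 itself was not called (log2 fold change 0.08 ± 0.19 SE, adjusted p = 0.818).

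Away from the X nearly every call was lower in PofD119 females on the scaling by genes, while on the scaling of the block table itself 23 blocks were higher and 31 lower. The levels here are on the scaling by genes. The 74 blocks on 3L together had 33.99, 28.6, 27.8 and 30.7 CPM in PofD119 females, against 72.9, 42.7, 62.4 and 76.6 CPM in PoX2Df1.688 females (ratio of means 0.476, exact permutation p = 0.0286), with 17 lower and none higher of 26 tested. On 2L the 15 blocks had 7.31, 5.01, 4.67 and 4.17 CPM in PofD119 females, against 9.63, 11.7, 11.2 and 12.5 CPM in PoX2Df1.688 females (ratio of means 0.470, exact permutation p = 0.0286), with 4 lower and none higher of 7 tested. Blocks on scaffolds not placed on a chromosome carried most of the reads, 354, 305, 368 and 319 CPM in PofD119 females, against 649.9, 565, 566 and 729 CPM in PoX2Df1.688 females (ratio of means 0.536, exact permutation p = 0.0286), and 130 were lower and 3 higher of 209 tested. On 2R the 2 blocks held between 2 and 16 reads per library and none was tested. The repeat table gave a separate count of the same family: reads assigned to the RepeatMasker name SAR_DM, an entry of this satellite family, were 431, 391, 424 and 394 CPM in PofD119 females, against 704, 586, 609.9 and 779 CPM in PoX2Df1.688 females. Block counts of this kind scale with how many copies a stock carries as well as with transcription, and copy number was not measured here.

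**Figure D4:**
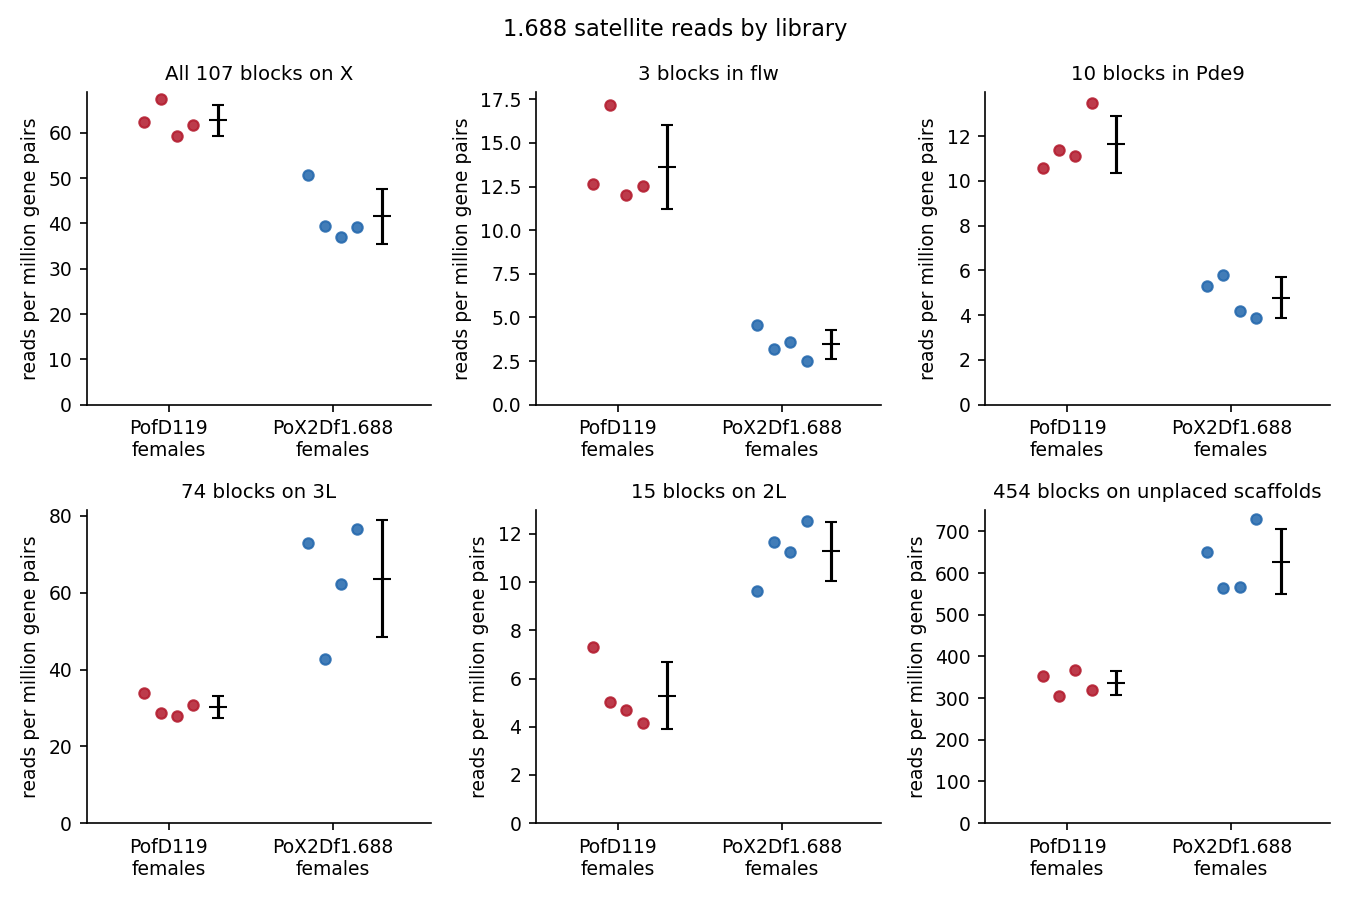
Reads in satellite blocks per 1000000 counted gene read pairs, summed over blocks of the X, of flw, of Pde9, of 3L, of 2L and of unplaced scaffolds, by library. Points are libraries and bars are mean ± SD (n = 4 each). On this scaling by genes PofD119 females, left, were higher in the 3 X panels of the upper row and lower in the 3 panels of the lower row, and no panel shows an overlap; scaled on the block table itself the blocks off the X split into higher and lower calls.

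Transposable elements moved in both directions, each by family. Of 724 repeat names tested, 58 were called higher and 55 lower in PofD119 females (15.6% of those tested, 8.01% higher and 7.60% lower). Copy number differs between fly stocks and reads that map to several copies were counted at each, so these values mix copy number and transcription, which cannot be told apart here. The internal part of copia, an LTR retrotransposon, had 879, 1131, 836 and 962 CPM in PofD119 females, against 79.7, 41.3, 113 and 106 CPM in PoX2Df1.688 females (log2 fold change 3.49 ± 0.31 SE, adjusted p = 5.85e-05). The gypsy-group element named DM297_I-int had 564, 559.6, 610.1 and 581 CPM in PofD119 females, against 94.6, 87.1, 108 and 120.2 CPM in PoX2Df1.688 females (log2 fold change 2.499 ± 0.12 SE, adjusted p = 3.96e-12). Gypsy itself, an endogenous retrovirus of the fly, had 2033, 1412, 1519 and 1875 CPM in PofD119 females, against 400.1, 440.0, 466 and 432 CPM in PoX2Df1.688 females (log2 fold change 1.98 ± 0.12 SE, adjusted p = 1.25e-10). The S element, a DNA transposon, was also higher, with 491, 517, 417 and 495 CPM in PofD119 females, against 134, 90.99, 95.4 and 131 CPM in PoX2Df1.688 females (log2 fold change 2.09 ± 0.14 SE, adjusted p = 4.09e-10).

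A different set of LTR elements was lower. ZAM, another endogenous retrovirus of the gypsy group, had 35.8, 31.2, 34.1 and 34.6 CPM in PofD119 females, against 278, 271, 204 and 279 CPM in PoX2Df1.688 females (log2 fold change -2.93 ± 0.13 SE, adjusted p = 9.71e-13), and its terminal repeats, ZAM_LTR, fell with it (log2 fold change -1.87 ± 0.22 SE, adjusted p = 2.21e-06). Stalker2_LTR had 6.93, 6.11, 5.61 and 4.98 CPM in PofD119 females, against 48.1, 37.5, 47.4 and 56.1 CPM in PoX2Df1.688 females (log2 fold change -2.997 ± 0.16 SE, adjusted p = 1.11e-11). The terminal repeats named BEL_LTR had 58.3, 49.6, 45.8 and 55.6 CPM in PofD119 females, against 245, 201, 199 and 214 CPM in PoX2Df1.688 females (log2 fold change -2.04 ± 0.12 SE, adjusted p = 6.77e-11), while 2 names defined on a relative, BEL-2_DSe-I and BEL-2_DSe-LTR, were higher with log2 fold changes of 2.35 and 1.95. The element matched by the name Gypsy6-I_Dmoj had the widest spread, 20.4, 46.99, 136 and 4.35 CPM in PofD119 females, against 2364, 1546, 2349 and 339 CPM in PoX2Df1.688 females (log2 fold change -4.98 ± 1.25 SE, adjusted p = 0.0433), and PoX2Df1.688 replicate 4 was far below the other 3 of its group. Names ending in another species' code denote consensus sequences from that species, to which reads of this species matched.

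Genes of the piRNA pathway, which silences transposable elements in the gonad, were mostly negative in fold change, with 20 of 26 below 0 (median -0.19). Of the 26, 1 was called higher and 3 lower, where 7.98% of all genes were higher and 5.87% lower. The arx gene, whose product acts in nuclear piRNA silencing, had 3.997, 3.38, 4.899 and 2.69 CPM in PofD119 females, against 8.66, 8.25, 9.09 and 7.79 CPM in PoX2Df1.688 females (log2 fold change -1.17 ± 0.19 SE, adjusted p = 0.00327). fs(1)Yb, needed for piRNA production in the somatic cells of the ovary, ran the other way with 10.96, 7.69, 9.797 and 6.32 CPM in PofD119 females, against 4.404, 3.04, 5.05 and 3.59 CPM in PoX2Df1.688 females (log2 fold change 1.12 ± 0.22 SE, adjusted p = 0.00932). The germline factors del and squ were lower, with log2 fold changes of -1.13 and -0.93, and without PofD119 replicate 3 the count of lower genes was 8, with 1 to 8 over all 8 omissions. Of the siRNA genes, AGO2, the slicer of the siRNA pathway, was lower with 153, 164, 157 and 167 CPM in PofD119 females, against 207, 204, 214 and 204.8 CPM in PoX2Df1.688 females (log2 fold change -0.37 ± 0.07 SE, adjusted p = 0.00685).

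Partners of POF and heterochromatin factors were lower as far as they were called. Of 16 genes, 5 were called lower and none higher, 15 had negative fold changes, and the median was -0.26. Over all genes 5.87% were called lower and 7.98% higher. Su(var)3-7, a zinc finger partner of HP1a, had 33.8, 31.5, 47.9 and 36.9 CPM in PofD119 females, against 64.04, 54.3, 68.6 and 51.8 CPM in PoX2Df1.688 females (log2 fold change -0.67 ± 0.14 SE, adjusted p = 0.0131). G9a, a histone H3 lysine methyltransferase, had 116, 91.3, 161 and 99.1 CPM in PofD119 females, against 203, 173, 194 and 169.8 CPM in PoX2Df1.688 females (log2 fold change -0.66 ± 0.16 SE, adjusted p = 0.0226), and wde, the cofactor of the methyltransferase encoded by egg, had 55.8, 46.2, 57.3 and 48.2 CPM in PofD119 females, against 73.1, 69.1, 66.7 and 66.4 CPM in PoX2Df1.688 females (log2 fold change -0.41 ± 0.10 SE, adjusted p = 0.0184). ADD1 and Su(var)2-HP2 were the others called, at -0.43 and -0.38. The genes for HP1a itself and for egg, the methyltransferase that acts on chromosome 4, were not called, with -0.08 and -0.09. In all 5 called genes the highest PofD119 library was replicate 3, the one with the most ovary marker RNA. Leaving out single libraries gave 1 to 6 lower genes, and the part of ovary content in these calls was not tested.

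The 2 eggshell lists had the lowest medians of the gene lists. All 13 tested vitelline membrane and early eggshell genes had negative fold changes, with a median of -3.18, but none was called. The PofD119 libraries spread from 29.7 to 1128 CPM summed, and without PofD119 replicate 3 the count of lower genes was 10. In 8 of the 13 all PofD119 libraries lay below all PoX2Df1.688 libraries. Vm26Ac, a vitelline membrane protein gene, had 0.152, 0, 3.18 and 0.0896 CPM in PofD119 females, against 11.6, 8.54, 12.2 and 5.896 CPM in PoX2Df1.688 females (log2 fold change -3.42 ± 1.07 SE, adjusted p = 0.0771). Of the 5 tested chorion genes, whose products form the outer eggshell (median -4.64), Cp7Fa was called lower, with 0.0761, 0.0879, 0.224 and 0.359 CPM in PofD119 females, against 1.27, 0.579, 1.95 and 0.474 CPM in PoX2Df1.688 females (log2 fold change -2.47 ± 0.61 SE, adjusted p = 0.0235). Of the 8 fits that left out 1 library, Cp7Fa was called in 4. Over all genes 5.87% were called lower. The chorion sums overlapped, with 3.84, 2.15, 9.68 and 2.51 CPM in PofD119 females, against 56.1, 6.90, 534 and 7.39 CPM in PoX2Df1.688 females.

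Female germline genes followed. Of 15 tested, 3 were called lower and none higher, 14 were negative, and their summed levels were 1845, 1185, 2847 and 1647 CPM in PofD119 females, against 3179.7, 2781, 3298 and 2779 CPM in PoX2Df1.688 females. The germline transcription factor ovo had 137, 97.5, 179 and 129 CPM in PofD119 females, against 207, 206, 221 and 177 CPM in PoX2Df1.688 females (log2 fold change -0.58 ± 0.16 SE, adjusted p = 0.0353). The anterior determinant bcd, deposited in the egg, had 6.6996, 3.74, 15.4 and 8.11 CPM in PofD119 females, against 21.1, 20.3, 23.4 and 16.7 CPM in PoX2Df1.688 females (log2 fold change -1.26 ± 0.36 SE, adjusted p = 0.0461), and zpg, a germ cell gap junction gene, had 30.99, 18.8, 45.8 and 22.4 CPM in PofD119 females, against 57.2, 55.6, 58.3 and 47.8 CPM in PoX2Df1.688 females (log2 fold change -0.89 ± 0.24 SE, adjusted p = 0.0373). Without PofD119 replicate 3 the count of lower germline genes was 11, and over all 8 omissions it was 0 to 11. In the fit of all 8 libraries, 5.87% of all genes were called lower. The 3 yolk protein genes, made in fat body and follicle cells, were not called and overlapped between genotypes: Yp2 had 1207, 644, 2843 and 721 CPM in PofD119 females, against 2812, 3268, 3735 and 1922 CPM in PoX2Df1.688 females (log2 fold change -1.12 ± 0.51 SE, adjusted p = 0.189). Flies of both genotypes were pooled over the same windows after hatching, and ovary stage was not measured.

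Markers of other origins were low. The 19 testis genes summed to 11.9 to 15.2 CPM in PofD119 females and 7.19 to 11.9 CPM in PoX2Df1.688 females, with 1 called higher of 6 tested. The 13 accessory gland genes summed to 9.39 to 11.5 CPM in PofD119 females and 5.38 to 8.73 CPM in PoX2Df1.688 females, with none called of 3 tested, although the accessory gland sums did not overlap. The 12 Y-linked genes reached at most 0.176 CPM in any library.

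Genes of digestive proteases were higher in PofD119 females as far as they were called. The Jonah genes encode serine proteases of the midgut. Of 14 tested, 9 were called higher (7.98% of all genes were) and none lower in PofD119 females, with a median of 1.26. Their summed levels were 3028, 4795, 4204 and 2843 CPM in PofD119 females, against 1546, 1529, 1731 and 1678 CPM in PoX2Df1.688 females. Jon25Bii had 248, 393, 463 and 218 CPM in PofD119 females, against 22.7, 25.8, 19.1 and 23.5 CPM in PoX2Df1.688 females (log2 fold change 3.86 ± 0.26 SE, adjusted p = 2.11e-05), with a gap between the genotypes far wider than the spread within either. Jon99Fii had 283, 354, 264 and 195 CPM in PofD119 females, against 20.8, 24.1, 21.1 and 39.3 CPM in PoX2Df1.688 females (log2 fold change 3.38 ± 0.26 SE, adjusted p = 5.82e-05), and Jon44E had 48.5, 57.4, 37.1 and 25.5 CPM in PofD119 females, against 1.49, 1.11, 3.43 and 3.79 CPM in PoX2Df1.688 females (log2 fold change 4.12 ± 0.42 SE, adjusted p = 4.49e-04). The exception in direction was Jon99Fi, which was not called (log2 fold change -0.93).

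Trypsin genes ran the same way, with a median of 0.98. Of 9 tested, 7 were called higher (7.98% of all genes were) and none lower. The lambdaTry gene had 17.7, 43.4, 32.4 and 35.6 CPM in PofD119 females, against 5.52, 3.09, 8.21 and 11.5 CPM in PoX2Df1.688 females (log2 fold change 2.198 ± 0.41 SE, adjusted p = 0.0111) and zetaTry had 34.9, 50.8, 28.8 and 28.1 CPM in PofD119 females, against 7.99, 14.8, 12.2 and 14.8 CPM in PoX2Df1.688 females (log2 fold change 1.51 ± 0.24 SE, adjusted p = 0.00248). These genes lie in clusters of related copies, and read pairs that fit several near-identical members were not counted. Among amylases and maltases, which digest starch and sugars, 3 were higher and 1 lower of 12, against 7.98% higher and 5.87% lower of all genes. Mal-B1, a maltase gene, was the lower one, with 5.33, 4.13, 3.37 and 4.796 CPM in PofD119 females, against 47.4, 79.4, 61.04 and 81.8 CPM in PoX2Df1.688 females (log2 fold change -3.94 ± 0.21 SE, adjusted p = 1.82e-06), and Amy-d, an amylase gene, had 93.5, 262, 263 and 424 CPM in PofD119 females, against 65.8, 27.9, 86.3 and 61.7 CPM in PoX2Df1.688 females (log2 fold change 2.11 ± 0.52 SE, adjusted p = 0.0408). Leaving out single libraries gave 7 to 11 higher Jonah genes, 5 to 8 higher trypsins and 0 to 7 higher amylases and maltases.

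Immune effector genes were uneven between PofD119 libraries. Of 10 antimicrobial peptide genes tested, 2 were called higher (7.98% of all genes were). All 10 had positive fold changes, and the median was 2.61. Their summed levels were 208, 469, 221 and 1187 CPM in PofD119 females, against 94.2, 65.1, 199 and 98.5 CPM in PoX2Df1.688 females. The attacin gene AttA had 6.05, 67.5, 7.82 and 47.2 CPM in PofD119 females, against 0.597, 0.289, 1.08 and 1.36 CPM in PoX2Df1.688 females (log2 fold change 5.31 ± 1.104 SE, adjusted p = 0.0243), with PofD119 replicates 2 and 4 far above replicates 1 and 3, and AttB showed the same 2 libraries high (log2 fold change 4.42 ± 1.11 SE, adjusted p = 0.0426). Without single libraries 0 to 3 of the 10 were called. The Turandot stress genes were not called, although PofD119 replicate 4 reached 658 CPM summed against 15.2 to 58.6 CPM in the other 3 and 15.6 to 87.2 CPM in PoX2Df1.688 females.

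**Figure D5:**
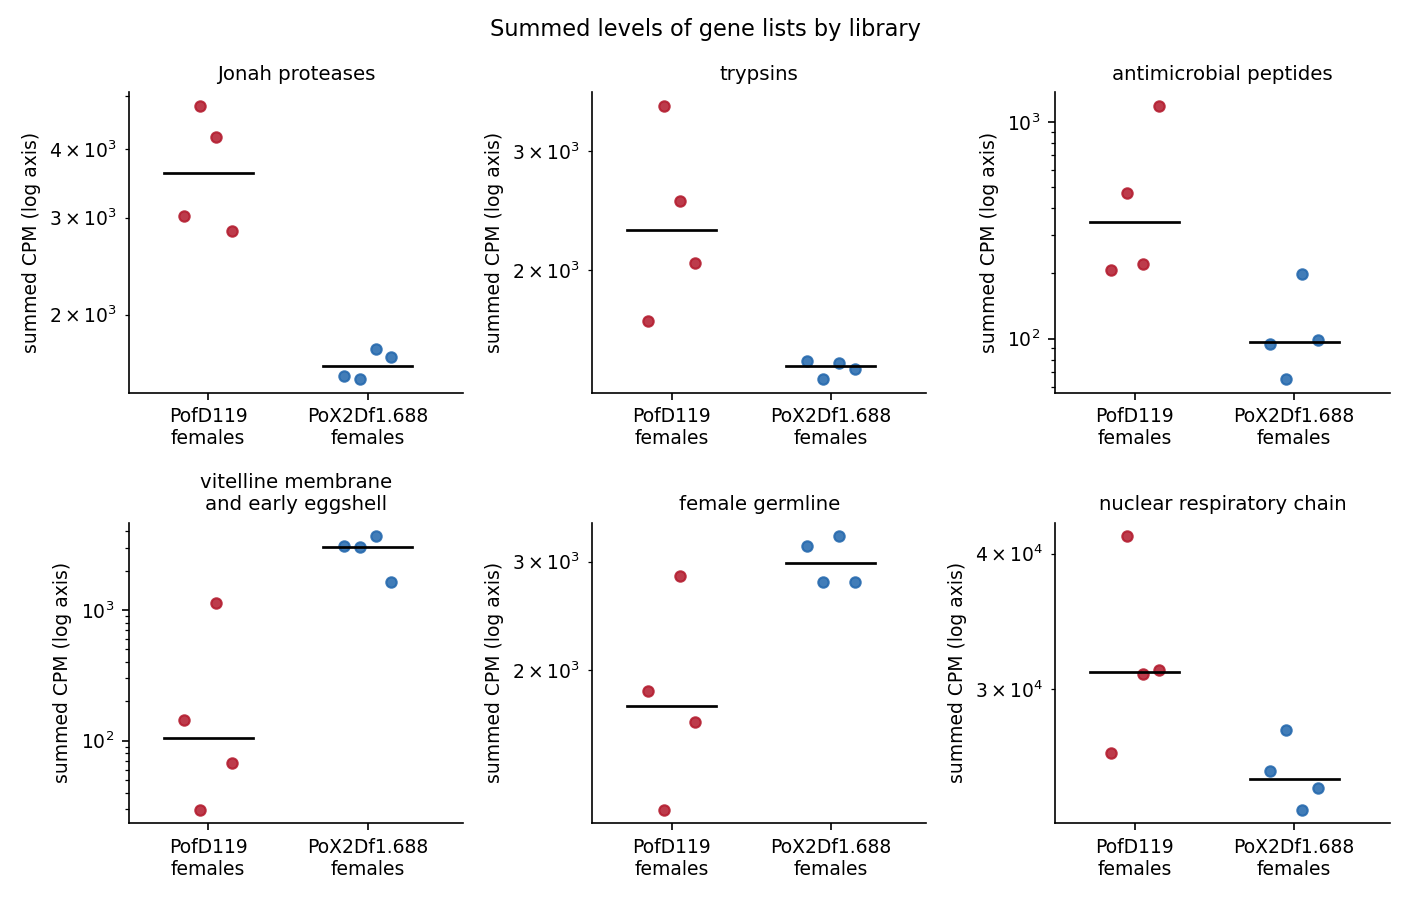
Summed CPM of 6 gene lists by library on log axes, PofD119 females left and PoX2Df1.688 females right. Points are libraries and black lines are group medians (n = 4 each). Jonah proteases, trypsins and antimicrobial peptides were higher in every PofD119 library, eggshell genes were lower in every one with replicate 3 nearest to the PoX2Df1.688 libraries, and female germline and respiratory chain sums overlapped.

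Of the genes of energy metabolism, some were higher by small steps. Of 68 tested nuclear genes of the respiratory chain, 14 were called higher (7.98% of all genes were) and none lower, 61 had positive fold changes, and the median was 0.31. SdhD, a subunit of succinate dehydrogenase, had 166, 228, 173 and 174 CPM in PofD119 females, against 117, 122, 121 and 109 CPM in PoX2Df1.688 females (log2 fold change 0.66 ± 0.11 SE, adjusted p = 0.00265), and the ATP synthase subunit gene ATPsynB had 639, 1130.4, 908 and 755 CPM in PofD119 females, against 551, 552, 544 and 552 CPM in PoX2Df1.688 females (log2 fold change 0.64 ± 0.15 SE, adjusted p = 0.0175). PofD119 replicate 2 was the highest library in both, and leaving out single libraries gave 2 to 26 higher genes. Of 15 mitochondrially encoded genes tested none was called, with a median of 0.45. Among 18 genes of lipid stores and starvation, 4 were higher and 1, the lipid droplet gene Lsd-2, was lower, and without single libraries 2 to 6 were higher. The fatty acid synthase gene FASN1 had 2283, 2055, 2290.2 and 2606 CPM in PofD119 females, against 1505, 1399, 1787 and 1587 CPM in PoX2Df1.688 females (log2 fold change 0.56 ± 0.10 SE, adjusted p = 0.00587), and AkhR, the receptor for adipokinetic hormone, had 35.9, 50.2, 35.3 and 38.99 CPM in PofD119 females, against 24.2, 25.5, 26.6 and 27.8 CPM in PoX2Df1.688 females (log2 fold change 0.62 ± 0.13 SE, adjusted p = 0.0103).

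Detoxification genes varied one by one. Of 76 cytochrome P450 genes tested, 19 were higher and 7 lower (median 0.25), where 7.98% of all genes were higher and 5.87% lower. Cyp6w1 had 70.5, 85.2, 73.7 and 104 CPM in PofD119 females, against 11.1, 13.02, 16.96 and 13.4 CPM in PoX2Df1.688 females (log2 fold change 2.61 ± 0.16 SE, adjusted p = 3.86e-06), Cyp6a2, known from insecticide-resistant strains, had 62.3, 84.1, 71.9 and 77.6 CPM in PofD119 females, against 15.002, 14.8, 20.3 and 21.4 CPM in PoX2Df1.688 females (log2 fold change 2.05 ± 0.15 SE, adjusted p = 1.22e-05), and Cyp4p1 ran the other way with 4.99, 6.198, 5.61 and 8.65 CPM in PofD119 females, against 25.004, 26.2, 20.997 and 24.4 CPM in PoX2Df1.688 females (log2 fold change -1.93 ± 0.17 SE, adjusted p = 5.17e-05). Of 33 glutathione S-transferase genes 5 were higher and 4 lower. GstE1 and GstT3 were among the lower ones, with log2 fold changes of -1.41 and -0.74, and GstE13 and GstD5 among the higher ones, with 1.22 and 1.88.

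Among genes of cuticle proteins the lower calls outnumbered the higher ones, 8 against 2 of 46 tested, and the median was -0.04. Over all genes 5.87% were called lower and 7.98% higher. Cpr64Aa had 11.4, 12.97, 10.7 and 10.1 CPM in PofD119 females, against 52.6, 62.98, 50.3 and 54.3 CPM in PoX2Df1.688 females (log2 fold change -2.29 ± 0.12 SE, adjusted p = 1.59e-06) and Cpr30F had 0.267, 0.527, 0.224 and 0.269 CPM in PofD119 females, against 12.2, 9.02, 8.14 and 9.96 CPM in PoX2Df1.688 females (log2 fold change -4.92 ± 0.28 SE, adjusted p = 2.48e-06), while Cpr72Ec was higher with 31.3, 26.7, 21.7 and 28.3 CPM in PofD119 females, against 8.58, 8.39, 4.64 and 8.61 CPM in PoX2Df1.688 females (log2 fold change 1.84 ± 0.20 SE, adjusted p = 2.12e-04). Of the cuticle tanning and melanin genes, 5 were higher and 2 lower of 13, with 1 to 5 higher without single libraries. The lower ones were the chromosome 4 gene yellow-h and PPO1, a prophenoloxidase of the blood cells that makes melanin, which had 1.26, 0.923, 1.46 and 0.896 CPM in PofD119 females, against 3.28, 7.23, 5.92 and 5.22 CPM in PoX2Df1.688 females (log2 fold change -2.25 ± 0.28 SE, adjusted p = 5.83e-04), and the dopamine transporter gene DAT was higher with 23.8, 27.5, 23.9 and 20.7 CPM in PofD119 females, against 13.1, 19.05, 14.7 and 17.3 CPM in PoX2Df1.688 females (log2 fold change 0.57 ± 0.14 SE, adjusted p = 0.0236). Apart from w and v, the eye pigment genes ry and st were higher, at 0.65 and 0.53.

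For the remaining lists the shares to compare with are 7.98% higher and 5.87% lower over all genes. Without single libraries 0 to 5 heat shock genes were higher, 0 to 12 ribosomal protein genes lower and 1 to 4 ecdysone genes lower. Of 12 heat shock genes, Hsp27 and Hsp26 were lower, with log2 fold changes of -0.84 and -0.70, and Hsp23 was higher with 56.9, 49.8, 56.2 and 41.1 CPM in PofD119 females, against 8.66, 9.403, 28.7 and 22.02 CPM in PoX2Df1.688 females (log2 fold change 1.57 ± 0.38 SE, adjusted p = 0.0298). Among 13 ecdysone genes, the nuclear receptor genes Hr4 and usp were lower, with -0.63 and -0.36; usp was called in 3 of the 8 fits without 1 library. The clock gene tim was the 1 called of 9 and had 184, 185, 176 and 151 CPM in PofD119 females, against 132, 116, 129.6 and 126 CPM in PoX2Df1.688 females (log2 fold change 0.47 ± 0.09 SE, adjusted p = 0.0068). Of 82 genes for cytoplasmic ribosomal proteins 5 were lower and 2 higher, and of 27 odorant-binding protein genes 3 were lower and 2 higher, where 5.87% of all genes were lower and 7.98% higher. Larval serum and fat body genes and telomere capping genes had no call among 6 and 3 tested. All 6 larval serum and fat body genes had positive fold changes, while their summed levels overlapped between genotypes. In 2 of the 6 every PofD119 library lay above every PoX2Df1.688 library. These were Fbp2 (log2 fold change 1.71 ± 0.58 SE, adjusted p = 0.0972) and Lsp1alpha (log2 fold change 1.53 ± 0.55 SE, adjusted p = 0.111).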

How the data were processed

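RNA-seq libraries of 4 PofD119 and 4 PoX2Df1.688 female samples were compared. The authors trimmed reads with Trimmomatic 0.36, aligned them with STAR 2.5.4b to release 6 of the fly genome, and deposited featureCounts 1.6.3 counts. Per the deposited file headers, gene counts are uniquely mapped read pairs, repeat counts are pairs and block counts are single reads, with reads of several places counted in full at each place, and none used strand. Columns were assigned to samples by their names.

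Counts were tested as deposited with edgeR 4.0.16 (R 4.3.3): filterByExpr with a minimum count of 10, TMM scaling, the robust quasi-likelihood F test and Benjamini-Hochberg adjustment, called at 0.05, without covariates. Blocks and repeats used the library sizes and TMM factors of the gene table. SE was the fold change over the root of F. One value per library was tested by two-sided exact permutation over 70 arrangements, on log2 CPM with a prior count of 2. Gene IDs of 17288 of 17490 genes matched the Ensembl release 115 annotation, which gave symbols. Of the repeat names, 19 of satellites, rRNA, tRNA and simple sequence were set aside and 1133 kept.

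Named were Pof, the genes flanking PoX2 and the MSL genes; the 12 called genes of largest change each way among those of at least 1 CPM whose groups did not overlap, and the 6 largest on chromosome 4 and on the X; up to 4 members of each of 32 gene lists by p; the blocks at PoX2 and in Pde9 and the 6 called blocks of largest change each way; the 8 called repeats of largest change each way; and up to 6 genes each way with 3 counts or fewer throughout 1 group. Others were named after their values were seen. Members and lists were chosen with earlier results of these data known. Of the list entries, 773 matched a gene and 8 did not. Alternatives were DESeq2 1.42.0, RLE scaling, other filters, a 2-fold limit, thinning to the smallest library, all 16 female libraries, a replicate block and leaving out each library. The labels name no separate cultures, so p-values measure the spread between these samples. Counting intervals (95%) and floors of 3 counts cover counting error only. On simulated counts 76 of 105 genes changed 2-fold and 92 of 95 changed 4-fold were found in the gene comparison. There were 4 false calls among 11469 genes. The simulated spread of a gene followed from its mean level alone and no library stood apart, so the error rate of the real calls is not given by it.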

Additional observations from a re-analysis of the deposited data

Results flagged for a closer look

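Of 420 groups of 4 libraries examined, 32 held 1 library farther from the other 3 than Dixon's 95% limit for 4 samples allows; chance gives about 1 such group in 20. PofD119 replicate 3 had 1128 CPM summed over vitelline membrane and early eggshell genes, against 29.7 to 143 CPM in the other 3 PofD119 libraries, 3.178 CPM of Vm26Ac and 6232 CPM summed over the yolk protein genes. It also had the highest CR41509, 2.393 CPM. In PoX2Df1.688 replicate 3 the chorion genes summed to 533.6 CPM, against 6.90 to 56.1 CPM in the other 3. The Turandot sum stood apart at 658 CPM in PofD119 replicate 4, with TotM at 55.22 CPM, and at 87.22 CPM in PoX2Df1.688 replicate 3. The lipid store list reached 6327 CPM in PofD119 replicate 4.

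Further single values stood apart within PofD119 females: SdhD at 228.2 CPM, y at 8.638 CPM, Cpr30F at 0.5275 CPM, CG4367 at 5.423 CPM and 2 of the flw blocks at 6.242 and 5.583 CPM. A single read pair gave CG3588 its 0.03807 CPM and sordd2 its 0.03739 CPM.

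Within PoX2Df1.688 females, Pof was 15.21 CPM in replicate 3 and 11.5 to 11.6 CPM in the other 3; without that library the log2 fold change of Pof was -0.47 (edgeR adjusted p = 0.137). X minus autosomes was 0.2928 in replicate 4, against 0.324 to 0.328 in the others, and MSL bin 1 minus autosomes was -0.8037 in replicate 2. The amylase and maltase list was low at 1133 CPM and the cuticle protein list high at 5157 CPM. Of single features, msl-3 reached 21.62 CPM, CG31997 34.24 CPM, RpS19b 0.5384 CPM and Crg-1 0.2893 CPM, while Cpr72Ec was low at 4.644 CPM and ZAM_I-int low at 204.1 CPM. In 1 library each, 2 read pairs gave 0.1346 CPM of lncRNA:CR45138, CG4367 and Hsp70Ba, and the Y-linked list summed to 0.09644 CPM.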

How the results depend on the processing

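The number of genes called was 2413 with DESeq2 (1078 lower), 2832 with all 16 female libraries (1389 higher and 1443 lower) and 606 with a 2-fold limit (394 higher and 212 lower). Of the 1588 genes, 1586 were called the same way by DESeq2 and 1449 after thinning to the smallest library. Leaving out single libraries gave 824 (without PoX2Df1.688 replicate 1) to 2965 genes (without PofD119 replicate 3), 503 to 1390 higher and 321 to 1575 lower. Satellite blocks called were 61 with a minimum count of 50 and 75 when scaled on the block table itself, against 171, and 148 to 177 without single libraries. Repeat names called were 46 with a 2-fold limit, against 113, and 80 to 121 without single libraries. The cause of these shifts was not tested, except that the 2-fold limit and the higher minimum count keep fewer features.

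Chromosome 4 minus autosomes was -0.267 as a median over genes (exact permutation p = 0.0571), -0.0018 as log2 of summed CPM and -0.113 for that sum without apolpp, and without single libraries it ranged from -0.327 to -0.239, where 3 against 4 libraries cannot go below an exact permutation p of 0.0571. X minus autosomes was -0.0245 as a median over genes, -0.0401 as log2 of summed CPM, and -0.0861 to -0.0595 without single libraries. As log2 of summed CPM the sign turned for arm 2R (-0.002), arm 3R (0.0215) and MSL bin 2 (-0.0154). The sign of roX1, which was not called in any fit, turned after thinning (-0.109) and without single libraries, where it ranged from -0.151 to 0.206.

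Over all genes, the deviations of same-numbered samples of the 2 genotypes had correlations of -0.01, 0.06, 0.20 and -0.01. Replicate 3 nevertheless had the highest chorion, vitelline membrane and yolk protein sums of its group in both genotypes. Its chorion sum was 9.68 CPM in PofD119 females and 533.6 CPM in PoX2Df1.688 females. On the second principal component it was the lowest of its group in both, at -27.7 and -23.6. Whether the numbers pair the samples was therefore not settled. With the replicate block 1994 genes were called (990 higher and 1004 lower), and in a sign-flip test of the paired values chromosome 4 and the X differed by -0.284 and -0.0728 with an exact p of 0.125, the smallest that 4 pairs can give. Over the named genes, blocks and repeats under each alternative that gave a value, and the gene list counts without PofD119 replicate 3, 2222 values kept their direction and their side of the threshold (list counts stayed within 1.5 times), 182 lost the call, 30 gained it, 11 list counts moved further, and 4 values turned sign, all of roX1. Depth limits the sparse features: 380 of the 652 blocks were too low to test.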

Other observations

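Some single genes with large or even differences remain. Odorant-binding proteins, which carry odours in the fluid of sensory hairs, included Obp57a, which is expressed near taste hairs and had 4.45, 3.78, 5.198 and 9.099 CPM in PofD119 females, against 15.9, 16.5, 14.3 and 18.4 CPM in PoX2Df1.688 females (log2 fold change -1.53 ± 0.25 SE, adjusted p = 0.00262). Its neighbour Obp57c was also lower (log2 fold change -0.73 ± 0.16 SE, adjusted p = 0.0133), and X-linked Obp19b was higher (log2 fold change 1.06 ± 0.27 SE, adjusted p = 0.0286). Among ribosomal protein genes the duplicate RpS15Ab had 26.99, 33.8, 30.3 and 28.9 CPM in PofD119 females, against 17.8, 18.9, 17.4 and 17.8 CPM in PoX2Df1.688 females (log2 fold change 0.74 ± 0.11 SE, adjusted p = 0.00139), while RpL39 was lower (log2 fold change -0.45 ± 0.12 SE, adjusted p = 0.0346). The testis gene mia was higher with 5.25, 5.58, 3.93 and 4.303 CPM in PofD119 females, against 1.94, 2.99, 3.03 and 2.304 CPM in PoX2Df1.688 females (log2 fold change 0.88 ± 0.21 SE, adjusted p = 0.0221). CG32302, a gene that overlaps yellow-g on the opposite strand, had 11.99, 55.1, 35.7 and 131 CPM in PofD119 females, against 0, 0.482, 0.337 and 0.136 CPM in PoX2Df1.688 females (log2 fold change 7.76 ± 1.09 SE, adjusted p = 0.0058), and Crg-1 had 3.73, 3.82, 2.69 and 2.69 CPM in PofD119 females, against 0, 0.289, 0 and 0 CPM in PoX2Df1.688 females (log2 fold change 5.06 ± 0.63 SE, adjusted p = 5.39e-04).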
